A study of Mus musculus with 4 samples.

Results

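The interferon-induced GTPases and feedback genes are 6 genes, Iigp1, Irgm1, Gbp2, Gbp3, Ifitm3 and Socs3, of 10225 genes with a spot of their own on the array. They were looked up by symbol in the platform's probe-to-gene table and had 10 of the 18511 spots that the table assigns to 1 gene. Iigp1 had 3 spots, Gbp2 and Ifitm3 had 2 each, and Irgm1, Gbp3 and Socs3 had 1 each. The genes were picked with earlier results on these same arrays known, among them which spots of Iigp1 and Irgm1 had a value, and the ratios of Iigp1, Gbp3, Ifitm3 and Socs3 on AT-EAE array 2 and of Gbp2 on control array 1. Presence of values and ratios of these genes are therefore given as a description.

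RNA came from spinal cords of adult female SJL/J mice, either with adoptive-transfer experimental autoimmune encephalomyelitis (AT-EAE), in which myelin-reactive T cells are given to recipient mice, or without it (control). Every extract pooled the cords of 2 mice, and a 2-colour cDNA array compared 2 extracts of the same group. AT-EAE array 1 held AT-EAE extracts 1 and 2, AT-EAE array 2 held AT-EAE extracts 3 and 4, and the 2 control arrays held control extracts 1 and 2, and 3 and 4. The sources used here give neither the time after transfer nor a clinical score. A deposited value is a log ratio between the 2 extracts of an array, so it says nothing about the level in AT-EAE against control cord. The base of the logarithm was taken as 2, and which extract is the numerator is not known, so the sign of a ratio is relative to other genes of that array. A spot without a deposited value is called absent here. The sources used here do not say by which rule the authors left values out.

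Interferon gamma and the type I interferons act through JAK kinases and STAT transcription factors, which bind GAS and ISRE elements in promoters of their target genes. Immunity-related GTPases (IRG) and guanylate-binding proteins (GBP) are among the targets most strongly induced in mouse cells, and they attack membranes around intracellular microbes. Infiltrating T cells are a known source of interferon gamma in inflamed spinal cord, and microglia, macrophages and astrocytes are known to respond to it.

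The promoters of the 5 members with an entry are shown because each held letters of at least 1 of these elements. The windows are RefSeq sequences of GRCm38.p6, from 250 bases before to 50 bases after each gene start. They were searched on both strands for the ISRE core, GAAA and GAAA with any 2 bases between, and the GAS element, TTC and GAA with any 3 bases between. Capitals mark the matches, and positions count from the gene start. Irgm1, Gbp2, Gbp3 and Ifitm3 had the ISRE core, and Ifitm3 and Socs3 had the GAS element. Of all 32851 windows, 3.44% held the ISRE core and 8.3% the GAS element. A match describes letters in a window and shows no binding. Iigp1 is named only.
Irgm1 (chr11:48871421-48871475, minus strand, bases -55 to -1): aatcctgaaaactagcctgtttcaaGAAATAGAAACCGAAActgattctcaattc
Gbp2 (chr3:142620579-142620638, plus strand, bases -84 to -25): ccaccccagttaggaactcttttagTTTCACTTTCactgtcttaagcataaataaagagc
Gbp3 (chr3:142559974-142560039, plus strand, bases -70 to -5): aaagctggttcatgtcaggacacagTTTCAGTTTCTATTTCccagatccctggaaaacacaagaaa
Ifitm3 (chr7:141010714-141010743, minus strand, bases 2 to 31): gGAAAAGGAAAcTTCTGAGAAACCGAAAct
Socs3 (chr11:117969487-117969545, minus strand, bases -179 to -121): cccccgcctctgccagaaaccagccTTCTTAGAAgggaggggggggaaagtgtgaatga

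In Irgm1 the capitals hold 2 ISRE cores that overlap, at bases -30 to -21 and -24 to -15. Gbp3 likewise held 2 that overlap, on the other strand, at -45 to -36 and -39 to -30, and the second of its 2 RefSeq start entries held neither element. The single core of Gbp2 lay at -59 to -50, also on the other strand. In Ifitm3 the elements lay just past the start, with ISRE cores at 3 to 12 and 20 to 29 and a GAS element at 14 to 22 that overlaps the core at 20 to 29. Socs3 held its GAS element at -154 to -146 and no ISRE core.

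**Figure D1:**
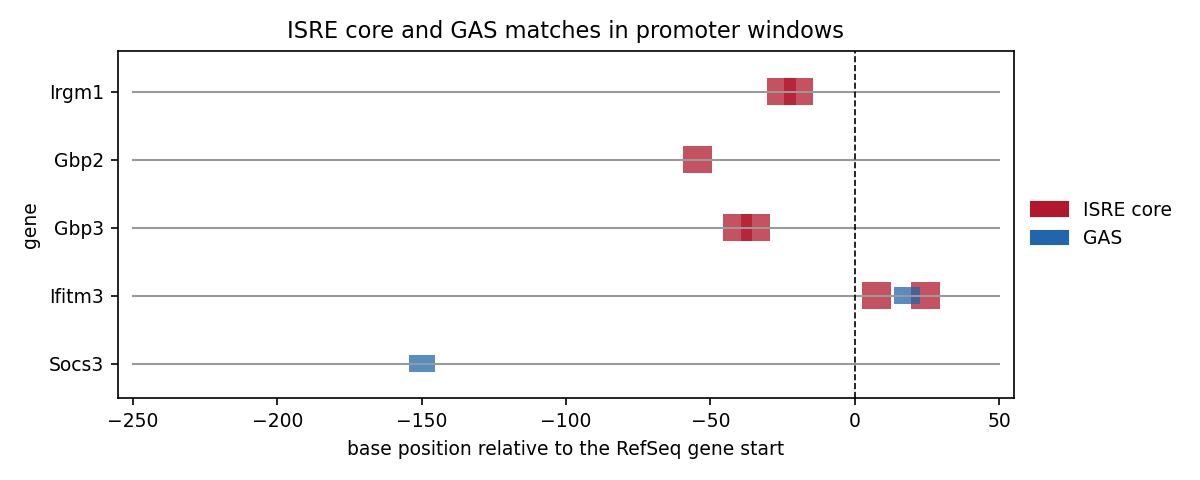
Position of ISRE core (red) and GAS (blue) matches in the promoter windows of 5 member genes, with the base position relative to the RefSeq gene start on the x axis and a gene per row; the dashed line marks the start. The cores of Irgm1, Gbp2 and Gbp3 lie within 60 bases before the start, those of Ifitm3 lie just after it, and the GAS element of Socs3 lies farther upstream at -154.

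The first question was which member spots had a value in which cords. Iigp1 and Irgm1, the GTPases of the IRG family, had values on AT-EAE arrays and none on either control array, at all 4 of their spots. The second spot of Gbp2 behaved in the same way, while both Ifitm3 spots, the Socs3 spot and the first spot of Gbp2 had values on all 4 arrays, as 39.9% of spots with 1 gene did. Over the 10 member spots, 10 and 9 had a value on AT-EAE arrays 1 and 2, against 4 and 5 on control arrays 1 and 2. Of all spots with 1 gene, 61.7% and 42.1% had a value on AT-EAE arrays 1 and 2, against 80.9% and 72.9% on control arrays 1 and 2. The member spots had more values in AT-EAE cord, where the array as a whole had fewer. Presence at the Iigp1 and Irgm1 spots was known when members were picked, so this contrast is no result about the members. Presence is no measure of level, since the rule for leaving values out is not known, and the part of spot filtering was not tested. In whole cord, the number of cells that express a gene and the RNA per cell cannot be told apart either.

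Values on both AT-EAE arrays and on neither control array were found at 4 member spots, Iigp1 spots 3740 and 12759, Irgm1 spot 24329 and Gbp2 spot 24046. This pattern held for 42 of the 18511 spots, or 0.227%. The 4 were 40% of the member spots and 9.52% of the 42 spots. The Iigp1 and Irgm1 spots among them were known when members were picked, so nothing is read from these shares. Another, Iigp1 spot 10758, had a value on AT-EAE array 1 alone. Counting a value on at least 1 AT-EAE array and none on control arrays, the share was 0.956% of all spots. Among the 3249 spots with no value on either control array, 1.29% had values on both AT-EAE arrays and 5.45% on at least 1. The opposite pattern, a value on at least 1 control array and on neither AT-EAE array, was found at 20.7% of all spots and at 0 member spots. The member count was 4 or 5 with any 1 array left out, and that of all spots lay between 87 and 178. Leaving out an array loosens the pattern, so neither count could fall, and nothing is read from them.

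Gbp3, with its single spot 5533, stood between the patterns, with values on both AT-EAE arrays and on control array 2, and none on control array 1. Presence was also counted at spots numbered near the 5 member spots without a control value. Whether spot numbers follow positions on the slide was not examined. Of the 100 spots within 50 numbers of each, 64% to 78% had a value on control array 1 and 54% to 71% on control array 2. On AT-EAE arrays 1 and 2 the corresponding shares were 51% to 63% and 19% to 39%. With 2 arrays a group, the smallest 2-sided exact permutation p is 0.333, so no such permutation of the arrays could pass a threshold, and presence was not tested in another way.

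**Figure D2:**
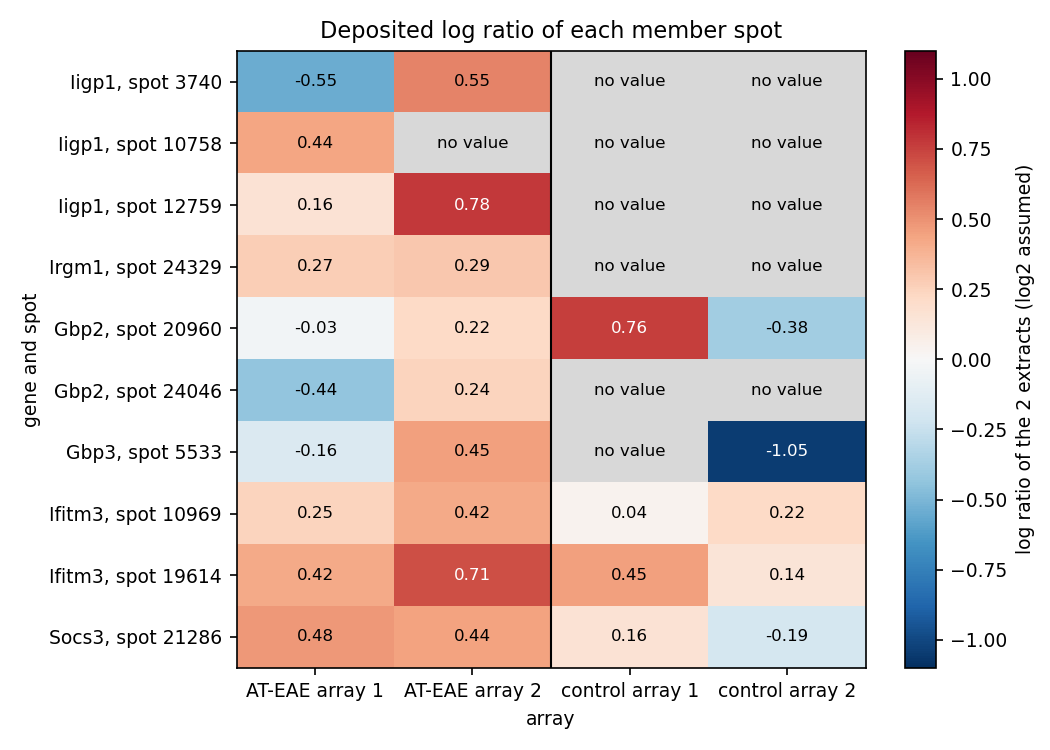
Deposited log ratio (log2 assumed) of the 10 member spots, with arrays on the x axis, gene and spot number on the y axis and grey for no value. The 3 Iigp1 spots, the Irgm1 spot and Gbp2 spot 24046 have no value on either control array and at least 1 value on the AT-EAE arrays.

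The families around the members were then examined, from lists chosen with earlier results known. The IRG list had 5 genes on the array. Its genes other than Iigp1 and Irgm1 had values in control cord too: Irgm2, a regulatory IRG protein, at its 1 spot on both control arrays, and Tgtp1 and the IRG-like gene Irgq at all of theirs. None of the 5 spots of these 3 genes had values in AT-EAE cord alone. In the GBP and Mx list, Gbp7 came nearest to the members. Gbp7 spot 3870 had 0.23 on both AT-EAE arrays and no value on control arrays, spot 6106 had 0.24 on AT-EAE array 1 alone, and spot 505 had values on 3 arrays, both control arrays among them. Apart from member spots, then, 0 of 5 IRG spots and 1 of 8 GBP and Mx spots had values on both AT-EAE arrays alone. Of all spots with 1 gene, 0.227% did. Gbp9 had no value on any array, and Gbp8 and the antiviral GTPase gene Mx2 had values in both groups.

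For IFITM and SOCS spots other than those of members, no spot had values in AT-EAE cord alone. Ifitm1, a relative of Ifitm3 at the cell surface, and Ifitm2 had values on all 4 arrays, and Ifitm5, a bone-specific member, had none. Of the 15 SOCS spots other than that of Socs3, 5 had a value on at least 1 control array and neither AT-EAE array. Both spots of Socs6 were among them, and 20.7% of all spots with 1 gene had that pattern. The receptor and signalling list had 1 of 45 spots, of Irf8, with a value on at least 1 AT-EAE array and none in control. The list of other interferon-stimulated genes had 2 of 60, of Oas2 and Zbp1. In that list 22 spots had no value on any array, or 36.7% against 16.6% of all spots with 1 gene, among them the 2 spots of the antiviral gene Rsad2, the 3 spots of Trim25 and the spot of the chemokine gene Cxcl9. A value on at least 1 AT-EAE array and none in control was found at 0.956% of all spots with 1 gene. Most spots of almost any list lack this pattern, so these counts are a description.

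**Figure D3:**
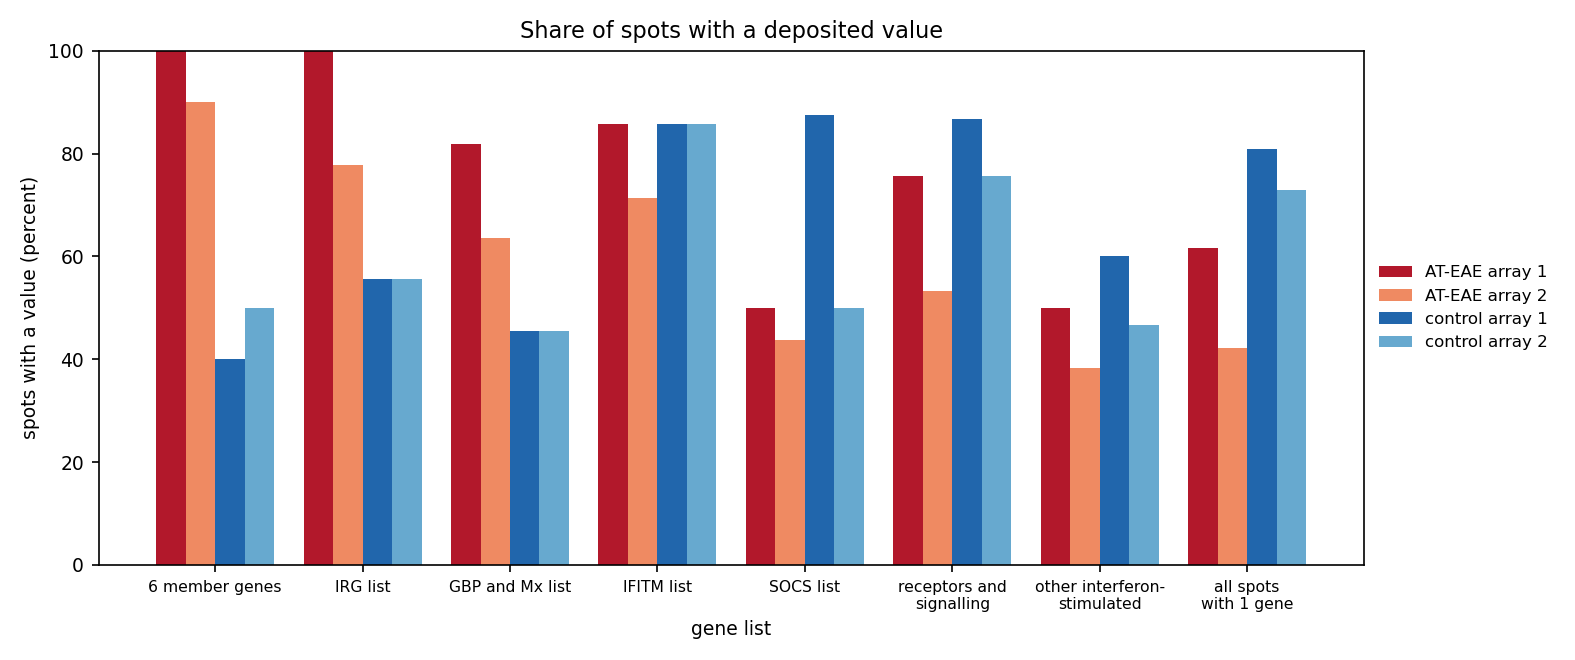
Percent of spots with a deposited value on each array for the 6 member genes, for 6 lists of related genes (members included where they belong) and for all spots with 1 gene. The member bars are 100% and 90% on AT-EAE arrays 1 and 2 against 40% and 50% on control arrays 1 and 2, while the bars of all spots are lower in AT-EAE.

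Markers of resident and infiltrating cells were on the array in small numbers. Spots of neuron and astrocyte markers such as Nefl and Aldoc had values on each array, 4 or 5 of 5 in each list. Of the 5 spots of the oligodendrocyte markers Mbp and Cnp, 4 and 3 had values on AT-EAE arrays 1 and 2, and 3 and 5 on control arrays 1 and 2. Of the microglia and macrophage markers, 3 of 6 were on the array, Cd68, Itgam and Lyz2, and values were present for 3 and 1 of their 3 spots on AT-EAE arrays 1 and 2, and for 2 and 3 on control arrays 1 and 2. Of the T cell markers only Cd4 was on the array, and it had no value on any array. None of these marker spots had values in AT-EAE cord alone, a pattern found at 0.956% of all spots with 1 gene.

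Genes known from microglia, macrophages and other leukocytes that are in none of these lists did share the pattern of Iigp1 and Irgm1. They were picked from the 42 spots, which belong to 40 genes, after their values were seen, so their number is no result. The 40 genes also include many that were not picked, such as Copg1, Nup188, Wwp2 and Tacc3. Of the picked genes, Cybb, the catalytic subunit of the phagocyte NADPH oxidase, had the pattern at 2 of its 3 spots. Clec7a, the beta-glucan receptor dectin-1, and the inhibitory receptor gene Lilrb4a had it at their 1 spot each. The leukocyte integrin gene Itgb2, the guanine exchange factor gene Dock2 and Cd300c2 had it at 1 of 2 spots each. Fcer1g, the shared signalling chain of Fc receptors, the inflammasome adaptor gene Pycard, Ms4a6d and the adhesion receptor gene Cd44 had it at 1 of 3 spots each, and the MHC class II gene H2-Eb1 at 1 of 4. Every one of the picked genes named here but Clec7a and Lilrb4a also had at least 1 spot with a value in control cord. Gbp2 did as well, and Iigp1 and Irgm1 did not. The part of cell composition in the presence pattern of the members was not tested.

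The second question was how far the members differed between the 2 extracts of an array. The spread over spots, as a standard deviation from the median absolute deviation, was 0.20 and 0.36 on AT-EAE arrays 1 and 2, and 0.21 and 0.26 on control arrays 1 and 2. On AT-EAE array 2 all 6 members lay above the array median over genes, at a member median of 0.52 above it and a range from 0.31 for Gbp2 to 0.74 for Iigp1. On AT-EAE array 1, 4 of 6 lay above, at a median of 0.14. On control array 1 all 3 members with a value lay above, at a median of 0.25, and on control array 2, 1 of 4 did, at -0.29. By construction 50% of genes lie above the median of an array, and members were picked in part for their place on AT-EAE array 2, so nothing is read from that count.

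Iigp1, which encodes an effector GTPase that coats the vacuoles of parasites, had the highest ratio of the members on AT-EAE array 2. Its spots 3740 and 12759 were at 0.55 and 0.78 there, above 93.9% and 98.0% of spots with 1 gene. On AT-EAE array 1 its 3 spots were at -0.55, 0.44 and 0.16 and gave a mean of 0.02. These 3 spots disagreed more than usual: their range of 0.98 was reached by 14 of 611 genes with 3 measured spots, or 2.29%, against a median range of 0.32. The gene mean on that array therefore does not describe its spots, and spot 3740 had opposite signs on the 2 AT-EAE arrays. Irgm1, a regulatory GTPase of endomembranes that keeps effector IRG proteins in check, had 0.27 and 0.29 on AT-EAE arrays 1 and 2, above 92.8% and 82.3% of spots. These ratios lay 1.34 and 0.98 of the array spreads above the spot median, and with a single spot they have no error of their own.

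Gbp2 encodes a guanylate-binding protein that gathers at pathogen membranes. Its spot 20960, the 1 with values throughout, was at -0.03 and 0.22 on AT-EAE arrays 1 and 2, against 0.76 and -0.38 on control arrays 1 and 2. Extracts of control cord thus differed more at this spot than AT-EAE extracts did, and the ratio on control array 1 lay above 99.8% of spots. Spot 24046 was at -0.44 and 0.24 on AT-EAE arrays 1 and 2. The 2 spots differed by 0.41 on AT-EAE array 1 and by 0.02 on AT-EAE array 2. Differences of 0.41 or more were found for 17% of genes with 2 measured spots on AT-EAE array 1.

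Gbp3, a close relative of Gbp2, was at -0.16 and 0.45 on AT-EAE arrays 1 and 2, and at -1.05 on control array 2. The control ratio was the most extreme of all member values, above only 0.719% of spots, and the 1 member value of at least 1 in size. Such ratios were found for 0.391% of genes on control array 2. For comparison, 0.365% and 1.07% of genes had them on AT-EAE arrays 1 and 2, and 0.136% on control array 1. GBP genes are similar in sequence, and cDNA spots can hybridise with relatives, so the ratios of single GBP genes are uncertain. The sequences of the clones were not analysed here.

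Ifitm3 encodes a membrane protein that blocks fusion of viruses in endosomes. It was the member with positive ratios at every spot and on every array. Spot 10969 was at 0.25 and 0.42 on AT-EAE arrays 1 and 2, and at 0.04 and 0.22 on control arrays 1 and 2. Spot 19614 was at 0.42 and 0.71, against 0.45 and 0.14. The ranges of the 2 groups overlap at spot 19614 and do not at spot 10969. Of the 7391 spots with 4 values and 1 gene, 13% lay above the array median on every array. Ifitm1 showed the same signs, at 0.48 and 0.28 in AT-EAE and 0.37 and 0.32 in control. The means of Ifitm2 were 0.04 and 0.22 in AT-EAE and -0.06 and 0.20 in control. Its 2 spots had opposite signs on both AT-EAE arrays and on control array 1, so the means there do not describe them. Ifitm10, another relative, was at -0.57 on AT-EAE array 1 and at -0.66 and -0.47 on control arrays 1 and 2.

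Socs3 encodes an inhibitor of JAK kinases bound to the IL-6 receptor chain gp130 and is itself a STAT3 target. It was at 0.48 and 0.44 on AT-EAE arrays 1 and 2, against 0.16 and -0.19 on control arrays 1 and 2. The AT-EAE ratios were the higher ones. Groups did not overlap at 2 of the 4 member spots with 4 values, and at 30.4% of all such spots with 1 gene. The order of extracts within an array is arbitrary, moreover, so the 2 groups of signs cannot be set against each other as a response. In size, Socs3 averaged an absolute ratio of 0.46 over the AT-EAE arrays and 0.18 over the control arrays, and Ifitm3 averaged 0.45 and 0.21. It went the other way for Gbp2, at 0.23 in AT-EAE and 0.57 in control, and for Gbp3, at 0.30 in AT-EAE and 1.05 on its 1 control array. Over genes with values on all 4 arrays, the medians were 0.19 in AT-EAE and 0.14 in control. The members therefore had no shared direction in how much extracts of the 2 groups differed, and no exact permutation p under 0.333 was possible.

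**Figure D4:**
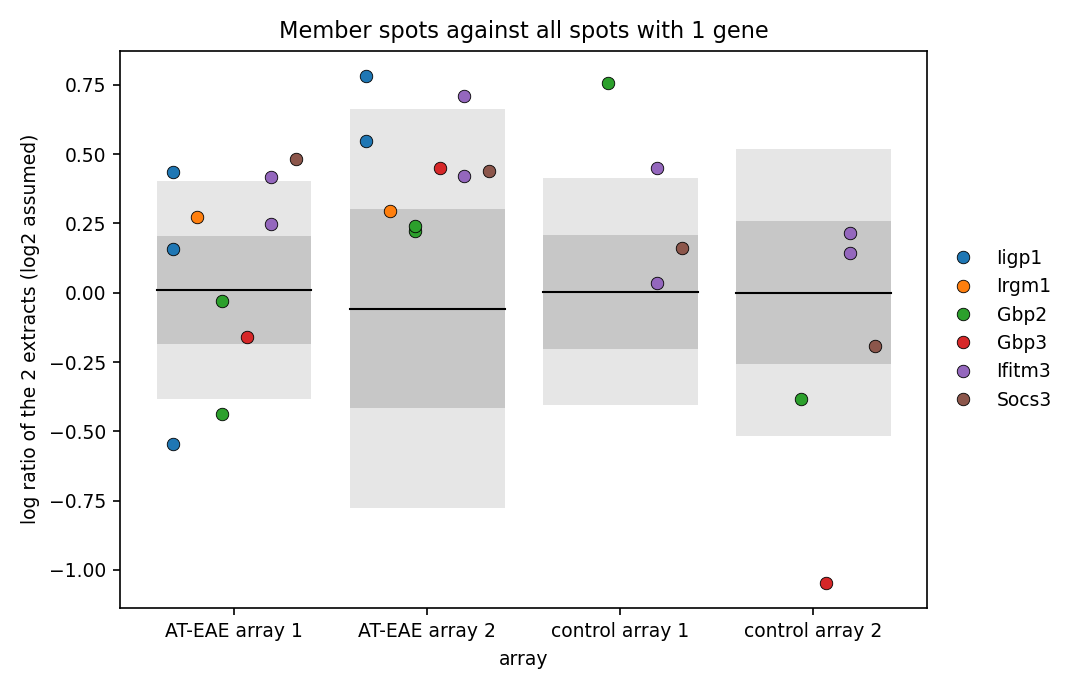
Log ratio (log2 assumed, y axis) of member spots on each array (x axis), coloured by gene; the line is the median over all spots with 1 gene, and dark and light bands are 1 and 2 MAD-based standard deviations. Member spots lie above the median on AT-EAE array 2, while Iigp1 is split on AT-EAE array 1 and Gbp3 lies at -1.05 on control array 2.

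A ratio shared by all 4 arrays can come from the channels instead of the extracts, and limma was run on all 10133 spots with 4 values to test this. It called 4 spots as shared, or 0.0395%, and 0 of the 4 member spots fitted. The lowest adjusted p among members was 0.226, at Ifitm3 spot 19614, with a shared ratio of 0.43 ± 0.11 (SE, 4 arrays, positive on 4 of 4). The shared ratios of the other member spots were 0.23 ± 0.11 for Ifitm3 spot 10969 (limma adjusted p = 0.409), 0.22 ± 0.11 for Socs3 (0.435) and 0.14 ± 0.17 for Gbp2 spot 20960 (0.74). These fits include the array on which members were picked. Without AT-EAE array 2, the shared ratio of Ifitm3 spot 19614 was 0.36, and without AT-EAE array 1 it was 0.50. The latter fit keeps AT-EAE array 2, on which Ifitm3 was picked. In it the 4 member spots all had the same SE of 0.14, so the variance was in effect pooled over spots. That variance came from the control arrays, and the AT-EAE array is assumed to vary like them. When the ratios of AT-EAE arrays minus those of control arrays were tested, limma called 0 of 10133 spots, a share of 0%, with 366 at an unadjusted p under 0.05, 0 of them member spots. Socs3 had the largest difference among the 4 member spots, 0.47 ± 0.22 (SE, limma unadjusted p = 0.0577, adjusted p = 1).

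Some pairs of arrays from different groups correlated across genes more than arrays of the same group did. Over the 5429 genes with 4 values, Pearson's r was 0.19 between the 2 AT-EAE arrays and 0.12 between the 2 control arrays. Between groups it was 0.31 for AT-EAE array 2 and control array 1, and 0.33 for AT-EAE array 1 and control array 2. For AT-EAE array 1 and control array 1 it was 0.15, and for AT-EAE array 2 and control array 2 it was -0.00119. Genes share the array and its channels, so these are descriptions. The part of channel effects in the member ratios was not tested beyond the limma fit.

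The families gave further values on the scale of deposited log ratios. Among SOCS genes, Socs7 and the STAT5 target Cish had positive mean ratios on both AT-EAE arrays, as Socs3 did. Socs7 was at 0.38 and 0.31 on AT-EAE arrays 1 and 2, against 0.05 and 0.11 on control arrays 1 and 2. Its 2 measured spots were at -0.06 and 0.69 on AT-EAE array 2. On control array 2 its spots were at -0.48, 0.37 and 0.45, so the means on these arrays do not describe them. Cish was at 0.42 and 0.25, against 0.09 and -0.17. The means of Socs5 had opposite signs on the 2 AT-EAE arrays, at 0.09 and -0.28 in AT-EAE and -0.08 and 0.58 in control. Its 2 spots were at -0.27 and 0.45 on AT-EAE array 1, so the mean there does not describe them. Socs2, an inhibitor of growth hormone signalling, was at 0.25 and -0.06, against -0.09 and 0.28. Socs4 had 0.12 on AT-EAE array 2 and 0.04 on control array 1, and Socs6 had 0.13 on control array 1 alone. Without Socs3, 4 of 4 and 4 of 5 SOCS genes lay above the median on AT-EAE arrays 1 and 2, and 4 of 6 and 3 of 4 on control arrays 1 and 2, where 50% of all genes do.

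Among GTPase genes that are no members, Gbp7 was at 0.26 and 0.23 on AT-EAE arrays 1 and 2, against 0.40 and -0.20 on control arrays 1 and 2. Gbp8 was at -0.03 and 0.51, against 0.04 and 0.10. Tgtp1 is a GTPase of the IRG family with a near-identical copy that a cDNA spot may not tell apart. It was at 0.28 and 0.14, against 0.27 and 0.04. Its 2 spots disagreed on AT-EAE array 2, at -0.37 and 0.65, so the mean there does not describe them. Those of Irgq did too, at 0.51 and -0.23 there, and its means were 0.02 and 0.14, against -0.22 and -0.07. Irgm2 was at -0.06 on AT-EAE array 1, against -0.19 and -0.55 on control arrays 1 and 2. Mx2 was at 0.20 and -0.09, against -0.15 and -0.02. By their means, Gbp7, Gbp8, Tgtp1 and Irgq lay above the median on AT-EAE array 2, the last 2 by 1 of their 2 spots, Mx2 lay below it and Irgm2 had no value.

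**Figure D5:**
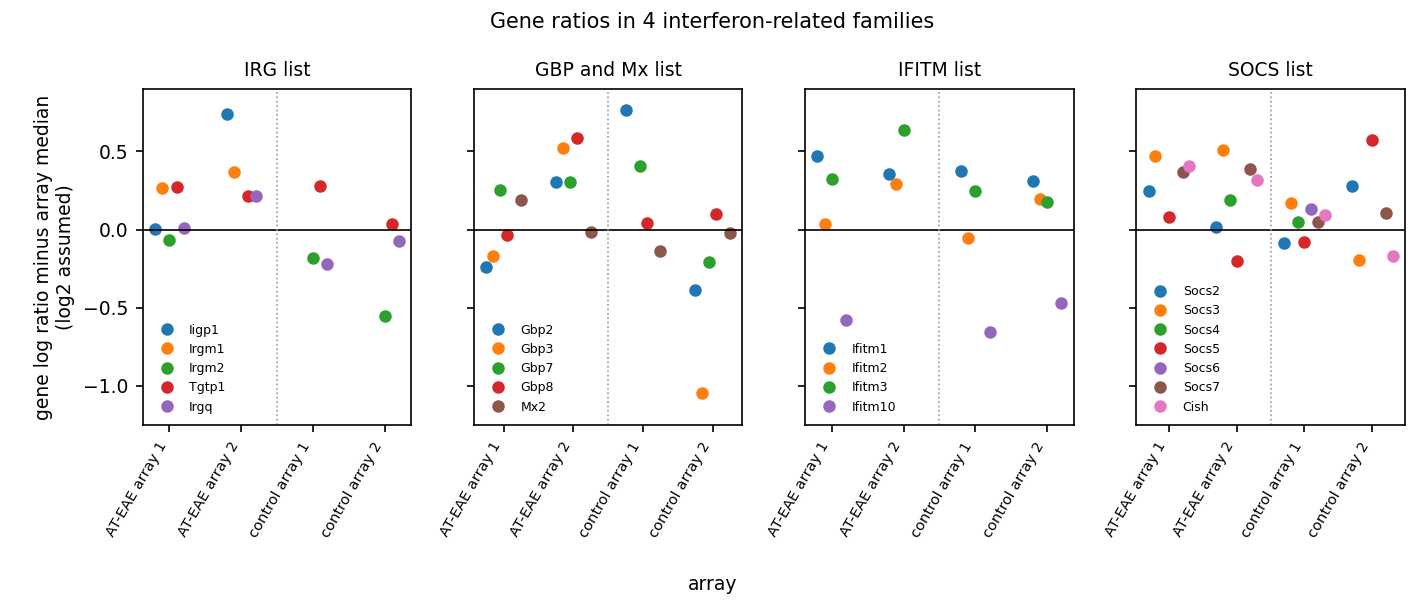
Gene log ratio minus the array median (log2 assumed, y axis) on each array (x axis) for genes of the IRG, GBP and Mx, IFITM and SOCS lists, members included; points are single genes, offset sideways for visibility. On AT-EAE array 2 the means of IRG and Ifitm genes with a value lie above 0, and Gbp3 lies lowest, on control array 2.

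Upstream of the members, interferon receptor and signalling genes lay on both sides of the median on AT-EAE array 2. Of 17 genes with a value there 8 lay above the array median, and the median of the list relative to it was -0.03. Ranked by their mean over both AT-EAE arrays relative to the array medians, among the 16 genes with values on both, Jak1, Ifnar1 and Ifngr1 were highest and Ptpn2, Ptpn6 and Ptpn1 lowest. The kinase gene Jak1 was at -0.01 and 0.41 in AT-EAE, against 0.15 and -0.21 in control, and the type I receptor gene Ifnar1 at -0.13 and 0.52 in AT-EAE, against 0.06 and -0.28 in control, each pair in the order of arrays 1 and 2. The interferon gamma receptor gene Ifngr1 was at 0.49 and -0.15 on AT-EAE arrays 1 and 2, against 0.12 and 0.34 on control arrays 1 and 2. The phosphatase genes Ptpn2 and Ptpn6, which dampen JAK and STAT signalling, were at 0.06 and -0.30 on the first AT-EAE array and at -0.83 and -0.45 on the second, so Ptpn2 was low on the second alone. On control arrays 1 and 2, Ptpn2 was at 0.01 and -0.14 and Ptpn6 at -0.10 and -0.14. Their relative Ptpn1 was at -0.12 and -0.32 on AT-EAE arrays 1 and 2, and at 0.08 and -0.12 on control arrays 1 and 2.

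Other interferon-stimulated genes were also divided. On AT-EAE array 2, 11 of 18 lay above the median, and the median of the list relative to it was 0.13. The tetherin gene Bst2, the beta-2 microglobulin gene B2m and the immunoproteasome gene Psmb8 were highest by the same mean among 17 genes, at 0.10, 0.13 and 0.09 on AT-EAE array 1, and on its second array at 0.41, 0.36 and 0.31. In control cord they were at -0.02, 0.56 and 0.44 on array 1 and at -0.25, -0.24 and -0.27 on array 2. The lowest were Ifi27, the nucleic acid sensor gene Zbp1 and Ifi203. Ifi27 was at -0.38 and -0.49 on AT-EAE arrays 1 and 2, against -0.27 and -0.14 on control arrays 1 and 2. Zbp1 was at -0.04 and -0.56, against 0.18 and -0.01. Its 2 spots were at 0.33 and -0.40 on AT-EAE array 1, so the mean there does not describe them. Ifi203 was at -0.11 and -0.35, against -0.49 and -0.09. On AT-EAE array 2, genes known to respond to interferon thus lay on both sides of the array median.

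The genes nearest to the mean of the members with 4 values were sought among 3553 genes with 4 values and at least 2 spots. Likeness was the Euclidean distance to the mean profile of Gbp2, Ifitm3 and Socs3, which relative to the array medians was 0.18 and 0.49 on AT-EAE arrays 1 and 2, and 0.39 and -0.14 on control arrays 1 and 2. The nearest were Pik3r1, a regulatory subunit of PI3 kinase, at a distance of 0.14, Samd14 at 0.19, Ttyh1 at 0.19, the cell cycle factor gene Tfdp1 at 0.20 and Gbp7 at 0.20. The median distance over the candidates was 0.74, and 38.6% of them were nearer to the profile than a gene at the median of every array would be. The members behind the mean differed among themselves. Relative to the array median, Gbp2, Ifitm3 and Socs3 were at -0.24, 0.32 and 0.47 on AT-EAE array 1. On control array 1 they were at 0.76, 0.25 and 0.17. The genes named are thus near an average and not near each member, and over 4 arrays such a likeness is a description.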

How the data were processed

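The values are the log2 ratios of the normalized green and red signals that the authors deposited, 1 per spot and array, as the labels' description of normalized signals and the signed values centred near 0 show. The base of 2 and the numerator are assumptions and unknowns stated above. The sources used here do not name the background correction, spot filter, normalization method or software. Of 28704 spots per array, 18511 were assigned to 1 gene, 937 to several and 9256 to none. Symbols were updated through gene identifiers to the GRCm38.p6 table for 18267 spots. All member spots had 1 gene. Values numbered 15635 and 10788 spots on AT-EAE arrays 1 and 2, and 21139 and 18565 on control arrays 1 and 2.

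Spots with a value were averaged to a gene ratio. The members and lists were chosen with earlier results of these data known. Named were the members, measured genes of 4 families, the 3 highest and 3 lowest of 2 lists by their mean over the AT-EAE arrays, and the 5 nearest patterns. Spots with a particular presence pattern were named after their values were seen. limma 3.58.1 (R 4.3.3) was fitted over all spots with 4 values and Benjamini-Hochberg adjusted, at 0.05. It was tested on simulated data with shifts larger than the member ratios fitted with all arrays, so power at their size was not tested. Python 3.11.15 was used otherwise. Replicates are pools of 2 mice, 2 arrays a group, which limits the precision. Columns of no sample numbered 0.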

Additional observations from a re-analysis of the deposited data

How the results depend on the processing

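Presence counts of member spots did not change with spots of several genes, none of which named a member. With each array left out in turn, an alternative chosen after seeing the data, 87 to 178 spots of all genes had values in AT-EAE cord alone. With all arrays there were 42. Of the spots with an array left out, 4 to 5 were member spots. Leaving out an array loosens the pattern, so neither count could fall. Taking off the mean ratio of the other group turned the member median on control array 1 to -0.21, and the ratios of Gbp3 on AT-EAE array 1 to 0.89, of Ifitm3 on control arrays 1 and 2 to -0.21 and -0.27 and of Socs3 on control array 1 to -0.30. This also adds the extract differences of that group. The member median on control array 2 turned to 0.20 without genes of 1 spot, where only Ifitm3 was left. The median over members of the AT-EAE minus control mean absolute ratio was -0.05 and lay between -0.11 and 0.21 with 1 array left out, at 0.06 without control array 1 and 0.21 without control array 2, so it has no settled sign.

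limma called 17 shared spots when 1 value in each group was enough, 49 with the array number as a replicate block, and 41 to 749 with 1 array left out, against 4 with all arrays. For the group difference it called 4, 21 and 5 to 333 spots in these settings, against 0. Ifitm3 spot 19614 was called as shared only in the fit without AT-EAE array 1. That fit keeps AT-EAE array 2, on which Ifitm3 was picked, so nothing is read from the call. No other member spot was called in these settings. The cause of the changes in calls was not tested, and a fit of 3 arrays leaves 1 residual degree of freedom per spot. In the fit without AT-EAE array 1 and in that with the replicate block, the member spots all had the same SE. The variance was in effect pooled over spots there. The array numbers pair nothing in the labels. Deviations of same-numbered arrays correlated at -0.329 over spots, and with the numbers crossed as a replicate block, chosen after seeing the data, limma called 4 shared and 0 differing spots, with 839 differing at an unadjusted p under 0.05. Of the other alternatives, 40 values that answer a comparison and 82 of single members kept their sign. They also stayed within the spread, or within 1.5 times for counts, except that values divided by the array spread were judged by sign alone. The subtraction also moved Gbp3 on AT-EAE array 2 to 1.49 and Socs3 on control array 2 to -0.65. Signal over background was not analysed here.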

Other observations

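Of the 42 spots with values on both AT-EAE arrays and neither control array, 8 were numbered from 12028 to 12534, a range that holds 1.8% of the spots with 1 gene and was found after the values were seen. None of these 8 is a member spot. The next spots with the pattern were Iigp1 spot 12759, Acod1 spot 12797 and Cd300c2 spot 12892, so a wider range would hold a member spot. In that range 45.6% and 34.1% of spots had a value on AT-EAE arrays 1 and 2, against 61.7% and 49.1% on control arrays 1 and 2. Over all spots of an array the shares were 54.5% and 37.6%, against 73.6% and 64.7%, so all 4 were lower in the range.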
